A study of Mus musculus with 25 samples.

Results

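The 6 mature miRNAs described here, all made by white blood cells, were followed in small extracellular vesicles from mouse liver: mmu-miR-142a-3p and mmu-miR-142a-5p, mmu-miR-223-3p and mmu-miR-223-5p, mmu-miR-155-5p, and mmu-miR-150-5p, written below without the prefix for mouse. They were chosen by name, as textbook markers of leukocytes, with earlier results of these data known, and are 6 of the 1493 entries of the count table. All 6 members passed the filter on low counts, which left 391 entries for testing. Small extracellular vesicles are membrane-bound particles that cells release, and they carry small RNAs. The vesicles came from livers of wild-type C57BL/6J mice of 5 ages, namely 1 week, 6 weeks, 6 months, 12 months and 14 months, with 5 mice and 5 small-RNA libraries at each age. No treatment is named, and the groups differ by age. The labels describe the sexes as evenly represented, which 5 mice cannot be at any 1 age, and do not give the sex of a mouse. The vesicles were set free from frozen tissue with an enzyme kit and collected by ultracentrifugation. They can be a mixture from any cells of the tissue taken, and which cells released them was not measured. Whether blood had been flushed from the tissue is not given in the sources used here. In such a mixture fewer leukocytes and less of the miRNA per leukocyte cannot be told apart. The batch given for each sample repeats its age, so age and any difference in handling cannot be told apart either.

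A miRNA is cut from a hairpin, whose 2 arms give the 5p and 3p products, and the arm that is loaded into an Argonaute protein represses messenger RNAs that pair with its seed, the bases 2 to 8. miR-142 is made in nearly all blood cells and in few other cells, and so serves as a general leukocyte marker. miR-223 is most abundant in neutrophils and monocytes and restrains granulocyte maturation and activation. miR-150 accumulates in mature B, T and natural killer cells and represses the transcription factor Myb, while miR-155 is induced when lymphocytes and macrophages are activated and targets Socs1 and Inpp5d, both brakes on inflammatory signalling. The liver holds resident macrophages, called Kupffer cells, and many lymphocytes in the adult, and around birth it is still a site of blood formation.

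The mature sequences are shown because the seed sets which messenger RNAs a miRNA pairs with, and because both arms of a pair of hairpins were counted. They are written 5′ to 3′, with the seed in capitals, as RefSeq gives them on GRCm38.p6, and 5 of the 6 members had an entry there.
miR-142a-3p: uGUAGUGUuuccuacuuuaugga
miR-142a-5p: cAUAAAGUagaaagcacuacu
miR-223-3p: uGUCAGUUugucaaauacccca
miR-223-5p: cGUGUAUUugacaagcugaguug
miR-155-5p: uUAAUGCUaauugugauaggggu
The 5 seeds all differ, so no pair of these miRNAs is a family by seed. Of the 1095 entries with a miRNA name, 924 had a sequence, and 0 of these shared a seed with any of the 5. No other entry of the table had nearly equal values to a member, as near-identical miRNAs would. The closest case was miR-335-5p beside miR-223-3p, with a largest difference of 0.86 on the log2 scale in any library.

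Both arms of miR-142a were counted, and the hairpin shows how they lie, with the 5p arm first and the 3p arm second in capitals.
Mir142 hairpin: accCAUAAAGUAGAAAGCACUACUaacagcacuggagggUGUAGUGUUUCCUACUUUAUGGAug
On GRCm38 with the GENCODE M21 annotation, Mir142 lies on the plus strand at chr11:87756864-87756927, in an intron of the long noncoding RNA gene Mir142hg. Another miRNA gene, Mir142b, is annotated on the opposite strand over the same bases, and whether the counting used the strand is not given in the sources used here. Mir223 lies at chrX:96242817-96242926 on the plus strand, in an exon of the noncoding transcript F630028O10Rik. Mir155 lies at chr16:84714140-84714204 on the plus strand, in an exon of its host gene Mir155hg, also a long noncoding RNA. Mir150 lies at chr7:45121757-45121821 on the plus strand, inside no other annotated gene.

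The libraries held 641579 to 6888928 counts, with the 1-week libraries the deepest as a group (2095925 to 6888928) and the 6-week libraries the shallowest (641579 to 1738208). Levels are given as CPM, counts scaled to a common library size, after scaling by trimmed mean of M values (TMM), whose factors were 1.30 to 1.79 at 1 week and 0.719 to 1.08 at the older ages. A floor of 3 counts corresponded to 0.283 CPM in the deepest library and 4.90 CPM in the shallowest. The 1-week mouse 27 stood apart: its library was the deepest, and among the 1-week mice its summed miRNAs of skeletal and heart muscle (1122 CPM against 58.0 to 509.8) and of biliary epithelium (1368 CPM) were highest and its erythroid sum (416 CPM against 785 to 921) lowest. Values without it are given where it mattered. In the text, values of single libraries follow the order of the mouse numbers, which were 1, 3, 4, 5 and 27 for 1 week, 6 to 10 for 6 weeks, 11 to 15 for 6 months, 16 to 20 for 12 months and 21 to 25 for 14 months.

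From 1 week to 6 weeks 5 of the 6 leukocyte miRNAs fell and 0 rose (edgeR quasi-likelihood test, Benjamini-Hochberg adjusted p under 0.05 over all 391 entries). The same test called 71.9% of all entries in this comparison, 36.8% as lower and 35.0% as higher, so a member's call is not rare here. The median log2 fold change was -1.54 over the 6 members and 0.12 over all tested entries. All 5 libraries at 6 weeks lay below all 5 at 1 week for 4 of the 6 members, against 28.6% of all entries. Together the 6 miRNAs took 0.834% ± 0.114 (SD, n = 5) of all counts at 1 week and 0.245% ± 0.0370 at 6 weeks. That share was 0.229% ± 0.0217 at 6 months, 0.311% ± 0.119 at 12 months and 0.247% ± 0.0506 at 14 months. Among the older ages the 12-month libraries thus spread most, from 0.209% to 0.514%.

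**Figure D1:**
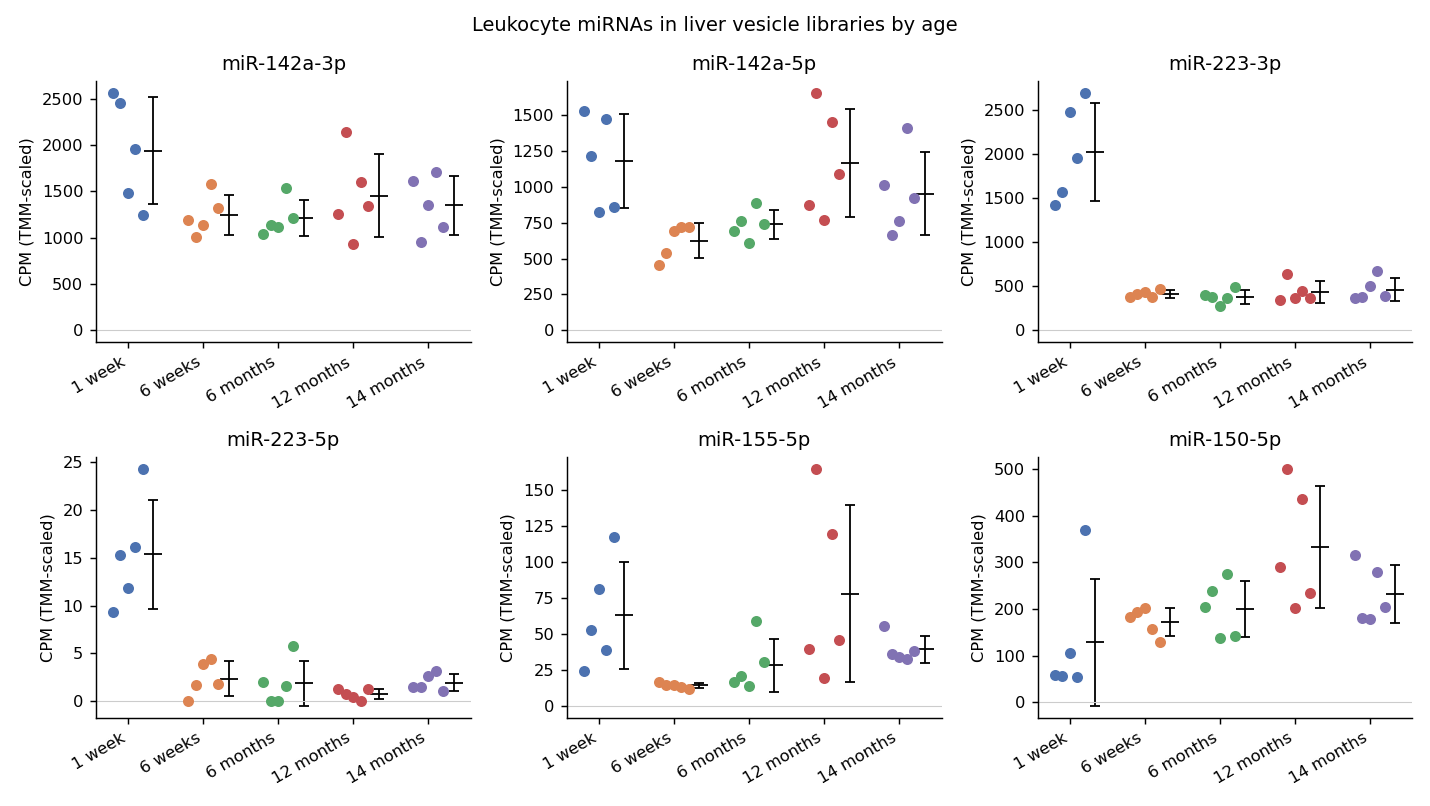
Level of each of the 6 leukocyte miRNAs (y axis, TMM-scaled CPM, linear, each panel with its own range) at the 5 ages (x axis), with 1 point per mouse and the mean ± SD of 5 mice as the bar beside the points. The 1-week points of miR-223-3p sit between 1419 and 2694 CPM, all above every older library, while those of miR-150-5p are low but for 1 mouse.

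miR-223-3p, the main product of the myeloid miR-223 hairpin, had the smallest adjusted p of the 6. It stood at 1419, 1571, 2473, 1952 and 2694 CPM at 1 week. At 6 weeks it stood at 374, 408, 435, 371 and 471 CPM. Even the lowest 1-week library was far above the highest 6-week library, and the groups did not overlap. The means were 2022 ± 554 and 412 ± 42.1 CPM (SD, n = 5), a log2 fold change of -2.30 ± 0.22 (SE) and a 4.91-fold lower level (edgeR adjusted p = 9.77e-10, lower in 5 of 5 libraries).

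After 6 weeks no further change in miR-223-3p was called. Its values were 397, 378, 272, 365 and 489 CPM at 6 months. They were 345, 641, 364, 448 and 369 CPM at 12 months, and 362, 379.6, 496, 669 and 383 CPM at 14 months. All 4 older ages overlapped, with means between 380.0 and 458 CPM, and the F test over those 4 ages gave an edgeR adjusted p of 0.834. At 14 months miR-223-3p was still 4.41-fold lower than at 1 week (log2 fold change -2.14 ± 0.22, edgeR adjusted p = 1.91e-09).

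miR-223-5p, the passenger arm of the same hairpin, was scarce. Its raw counts at 1 week were 41, 57, 46, 53 and 258. At 6 weeks they were 0, 1, 4, 5 and 3, and in all 20 older libraries they ran from 0 to 6, with 14 of the 20 at or under the floor of 3 counts. In CPM the 1-week libraries (9.30 to 24.3) lay above all others, of which the highest reached 5.76. The arm fell from 15.4 ± 5.70 to 2.34 ± 1.80 CPM between 1 week and 6 weeks (log2 fold change -2.61 ± 0.60, edgeR adjusted p = 0.000401). At these counts no difference among the older ages was detectable (F test over 4 ages, edgeR adjusted p = 0.524). The 5p arm amounted to 0.75% of the 3p arm at 1 week (geometric mean), and its difference at 6 weeks did not pass the exact permutation test. The size of that difference was set by the pseudocount, at -0.37 on the log2 scale with 0.5 (two-sided, adjusted p = 0.644), -1.001 with 0.1 and -0.01 with 1, so no direction is read from it.

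miR-142a, the general leukocyte marker, was lower at 6 weeks than at 1 week by a smaller factor. Its 3p arm stood at 2563, 2453, 1478, 1954 and 1245 CPM at 1 week. At 6 weeks it stood at 1193, 1007, 1139, 1575 and 1318 CPM. Mice 1, 3 and 5 lay above every 6-week library and mice 4 and 27 within the 6-week range, so the groups overlapped. The means of 1939 ± 581 and 1247 ± 215 CPM gave a log2 fold change of -0.64 ± 0.22 (edgeR adjusted p = 0.0103), and leaving out each library in turn kept the call, with adjusted p up to 0.0471.

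No difference in the 3p arm was called among the older ages. It stood at 1043, 1135, 1118, 1541 and 1208 CPM at 6 months. It stood at 1255, 2136, 931, 1596 and 1339 CPM at 12 months, and at 1609, 950.5, 1357, 1710 and 1118 CPM at 14 months. Neighbouring ages overlapped throughout, and the F test over the 4 older ages gave an edgeR adjusted p of 0.834. The difference between 14 months and 1 week, -0.52 ± 0.21 on the log2 scale, passed with an edgeR adjusted p of 0.0315, but did not pass in 6 of the 10 fits that left out 1 library (adjusted p up to 0.167). The F test over all 5 ages (edgeR adjusted p = 0.0314) likewise did not pass in 15 of 25 such fits.

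The 5p arm of miR-142a also fell, and its groups did not overlap. At 1 week it stood at 1528, 1213, 828, 1476 and 859 CPM. At 6 weeks it stood at 455, 539, 689.7, 723 and 723 CPM, so all 5 libraries at 6 weeks were below all 5 at 1 week. The level fell from 1181 ± 331 to 626 ± 122 CPM (log2 fold change -0.91 ± 0.23, edgeR adjusted p = 0.000823).

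In the adult the 5p arm stood at 694, 762, 609, 885 and 743 CPM at 6 months. It stood at 876, 1658, 769, 1457 and 1089 CPM at 12 months, and at 1011, 667, 762, 1409 and 920.0 CPM at 14 months. Mice 17 and 19 at 12 months and mouse 24 at 14 months were the highest, and the ages overlapped from 6 months on. The F test over the 4 older ages gave an edgeR adjusted p of 0.0661. That result depended on the setting: it passed with the DESeq2 test (adjusted p = 0.0274). By edgeR it passed without the filter on low counts (0.00347) and in a fit of those ages alone (0.0290), which called 31 of 281 entries. The model of all ages called 10 of 391. It also passed in 3 of 20 fits that left out 1 library. It did not pass with library totals (0.154), DESeq2 size factors (0.0843) or the log2 library total as a covariate (0.262). The difference of 14 months from 6 weeks, 0.61 ± 0.23 on the log2 scale, had an edgeR adjusted p of 0.135 with 4 of 5 libraries above all at 6 weeks.

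miR-155-5p, the activation-linked miRNA, fell after 1 week and was then uneven among the older mice. It stood at 24.0, 52.7, 81.2, 38.9 and 117 CPM at 1 week. At 6 weeks it stood at 16.8, 14.7, 14.5, 13.3 and 11.9 CPM, from 9 to 20 counts a library. The 6-week libraries were tightly grouped and all below the lowest 1-week mouse, while the 1-week mice were widely spread. The means of 62.8 ± 37.1 and 14.2 ± 1.80 CPM gave a log2 fold change of -2.16 ± 0.51 (edgeR adjusted p = 0.000509).

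In the older ages miR-155-5p stood above its 6-week level in many libraries. At 6 months it stood at 16.7, 20.5, 14.0, 58.9 and 30.7 CPM. At 12 months it stood at 39.5, 165, 19.6, 119.6 and 46.0 CPM, and at 14 months at 55.3, 36.4, 33.9, 32.6 and 38.2 CPM. All libraries of 12 and of 14 months were above all of 6 weeks, which held for 5.63% of all entries at 12 months and 5.88% at 14 months. Mice 17 and 19 at 12 months had the highest miR-155-5p of the 25. It was the 1 member called over the 4 older ages (F test, edgeR adjusted p = 0.0234), where 2.56% of all entries were called. That call did not pass without mouse 17 (adjusted p = 0.0767) nor without mice 17 and 19 together (0.234), a pair left out after their values were seen. Nor did it pass with the log2 library total as a covariate (edgeR adjusted p = 0.102). With library totals (0.0367) or DESeq2 size factors (0.0233) as the scale, it passed.

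No member was called between neighbouring older ages. Between 6 weeks and 6 months 0 of 6 were called by edgeR, 0 had an unadjusted p under 0.05, and DESeq2 gave the same counts, while 1.79% of all entries were called by edgeR. Between 6 and 12 months 0 of 6 were called by either tool, and miR-142a-5p and miR-155-5p had unadjusted p-values under 0.05 in both. Between 12 and 14 months 0 of 6 were called by either tool and miR-155-5p alone had such a p-value. In both of these steps 0% of all entries were called by edgeR.

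At 14 months against 6 weeks 0 of 6 members were called by edgeR or DESeq2, against 3.84% of all entries, and 2 had an unadjusted p under 0.05 in both tools. These were miR-142a-5p and miR-155-5p. For miR-155-5p the means were 39.3 ± 9.20 and 14.2 ± 1.80 CPM, all 5 libraries at 14 months lay above all 5 at 6 weeks, and the log2 fold change was 1.47 ± 0.51 (edgeR adjusted p = 0.119). Groups that do not overlap in this direction made up 5.88% of all entries. In a fit of these 2 ages alone miR-155-5p passed (log2 fold change 1.38, edgeR adjusted p = 0.00401). That fit called 28 of 246 entries, against 15 of 391 in the model of all ages.

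The 12-month libraries were also set against those of 6 weeks, a comparison chosen after the values were seen. miR-155-5p was 5.51-fold higher (log2 fold change 2.46 ± 0.52, edgeR adjusted p = 0.00609) and miR-142a-5p 1.87-fold higher (0.90 ± 0.23, edgeR adjusted p = 0.0152), each with 5 of 5 libraries above. These 2 of 6 members compare with 5.63% of all entries called, 3.84% as higher. In both tools 4 of 6 had an unadjusted p under 0.05, the others being miR-150-5p and miR-223-5p. miR-223-5p was lower (log2 fold change -1.69 ± 0.79, edgeR adjusted p = 0.236), on 0 to 5 counts at 6 weeks and 0 to 4 at 12 months. Groups that do not overlap in this direction also made up 5.63% of all entries. Both calls ended when mice 17 and 19 were left out together, with log2 fold changes of 1.31 for miR-155-5p (edgeR adjusted p = 0.167) and 0.55 for miR-142a-5p (0.288). Leaving out either mouse alone ended the call of miR-142a-5p (0.0509 without mouse 17 and 0.0760 without mouse 19) and kept that of miR-155-5p. The call of miR-142a-5p also ended without the 6-week mouse 6 (0.0520). It ended too with library totals (edgeR adjusted p = 0.0545) or the log2 library total as a covariate (0.0789). That of miR-155-5p passed in these last 2 settings (0.00869 and 0.0343).

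**Figure D2:**
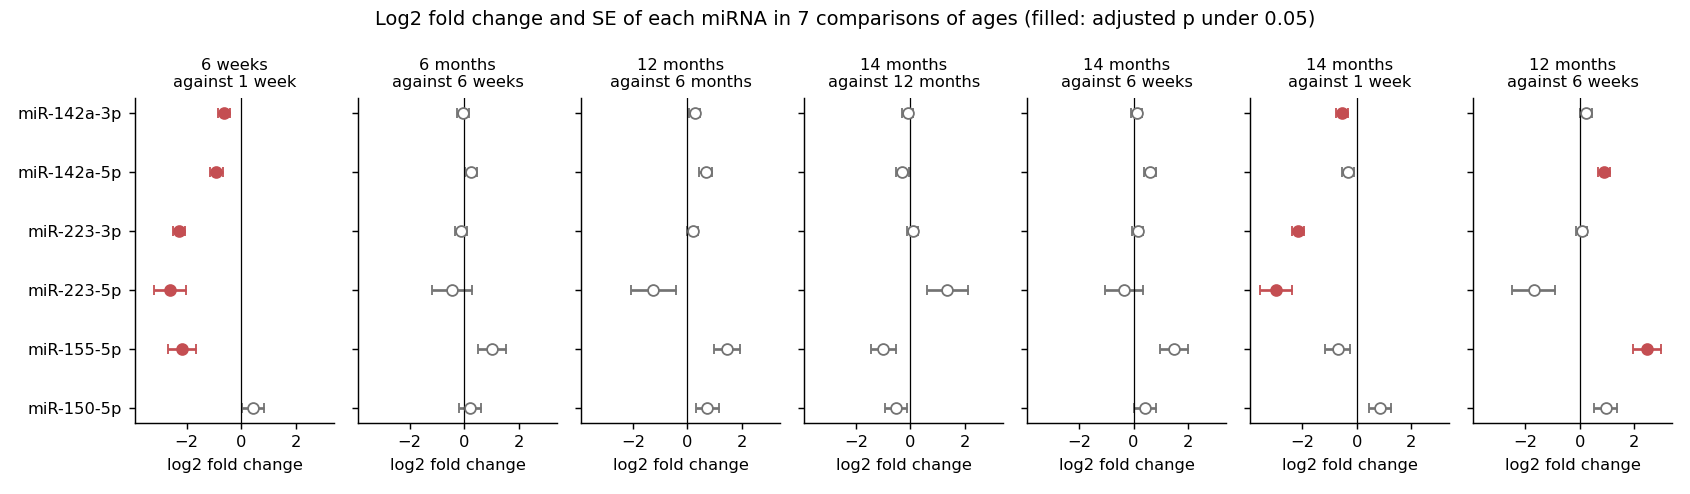
Log2 fold change of each miRNA (x axis) with its SE as the bar, in 7 comparisons of ages, 1 panel each, from 1 edgeR model of 25 libraries, with filled points for an adjusted p under 0.05. For 6 weeks against 1 week, 5 of 6 points are filled and left of 0, while 0 are filled between neighbouring older ages, and miR-155-5p and miR-142a-5p are filled right of 0 for 12 months against 6 weeks, a call that ended without mice 17 and 19.

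miR-150-5p, the lymphocyte miRNA, was the 1 member not called between 1 week and 6 weeks. It stood at 57.4, 55.6, 106, 53.8 and 369 CPM at 1 week. At 6 weeks it stood at 183, 194, 202, 157 and 129 CPM. Mice 1, 3, 4 and 5 lay below every 6-week library and mouse 27 above them all, so the groups overlapped through 1 library. The means of 128 ± 136 and 173 ± 30.2 CPM gave a log2 fold change of 0.42 ± 0.41 (edgeR adjusted p = 0.355). Without mouse 27 the log2 fold change was 1.34 (edgeR adjusted p = 0.000212), and between 1 week and 14 months it went from 0.85 ± 0.41 (adjusted p = 0.0646) to 1.76 (6.12e-06). Mouse 27 was also the 1-week library with the most miR-155-5p and the most of both miR-223 arms, and the least miR-142a-3p, and the part of its depth and of its muscle and biliary miRNAs in these values was not tested.

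From 6 weeks on miR-150-5p was not called in the model of all ages. It stood at 203, 239, 139, 275 and 142 CPM at 6 months. It stood at 290.4, 501, 202, 436 and 235 CPM at 12 months, and at 317, 181, 178, 279 and 205 CPM at 14 months. Mice 17 and 19 were again the highest, all 4 ages overlapped, and the F test over them gave an edgeR adjusted p of 0.483. It passed that test without the filter on low counts (0.0449) and in a fit of those ages alone (0.0420). At 12 months against 6 weeks its log2 fold change of 0.95 ± 0.41 did not pass (edgeR adjusted p = 0.206). Without that filter miR-150-5p passed (1.04, edgeR adjusted p = 0.0133). In a fit of these 2 ages alone, which called 36 of 230 entries, miR-150-5p also passed (0.88, edgeR adjusted p = 0.0368). Over all 5 ages it passed with an edgeR adjusted p of 0.0413, but not with library totals alone (0.305) or DESeq2 size factors (0.147) as the scale. It did not pass by the DESeq2 test either (adjusted p = 0.131), nor in 5 of the 25 edgeR fits that left out 1 library (adjusted p up to 0.0956).

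Over the whole series the F test of the 5 ages called all 6 members, beside 75.4% of all entries. Between 14 months and 1 week it was 3 of 6, all lower, namely miR-223-3p, miR-223-5p and miR-142a-3p, beside 72.9% of all entries called and 37.3% called lower. The median was -0.60 over the members and -0.06 over all tested entries. By mean level 1 week ranked highest for miR-142a-3p, miR-142a-5p and both arms of miR-223, second to 12 months for miR-155-5p, and lowest for miR-150-5p. Only for the miR-223 arms did 1 week not overlap with its neighbour in that order, and every other neighbouring pair of ages overlapped in each of the 6.

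The size of the fall after 1 week depended on the scaling. With library totals in place of TMM the log2 fold changes at 6 weeks were -2.94 for miR-223-3p, -1.32 for miR-142a-3p, -1.57 for miR-142a-5p, -2.81 for miR-155-5p and -3.24 for miR-223-5p, all still called, and -0.23 for miR-150-5p, which turned its direction. The median of all entries moved by -0.66 with this scale, by which the split of all calls went from 137 higher and 144 lower to 88 and 178.

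Ratios of 2 miRNAs within a library do not depend on that scale. In all, 10 such differences were tested by exact two-sided permutation of 5 against 5 libraries, for which the smallest p is 0.00794, and adjusted together. The log2 ratio of miR-223-3p to miR-142a-3p was -0.85, -0.64, 0.74, -0.0016 and 1.11 at 1 week. At 6 weeks it was -1.67, -1.30, -1.39, -2.08 and -1.48. The myeloid miRNA thus ranged from below to above the general leukocyte miRNA at 1 week and was well below it in every 6-week mouse. The mean ratio went from 0.07 ± 0.85 to -1.59 ± 0.31, a 3.16-fold change (exact p = 0.00794, adjusted p = 0.0397, lower in 5 of 5 libraries), and from 6 weeks to 14 months it differed by 0.02 (adjusted p = 0.889).

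The log2 ratio of miR-155-5p to miR-142a-3p was -6.10, -6.02, -6.25, -6.84 and -6.76 at 6 weeks. At 14 months it was -4.85, -4.69, -5.31, -5.70 and -4.86. Every 14-month library was above every 6-week library, a difference of 1.31 or 2.47-fold (exact p = 0.00794, adjusted p = 0.0397). Both of these ratios missed the adjusted threshold when any 1 of the 6-week libraries was left out (exact permutation, adjusted p from 0.0529 to 0.106). The differences were then 1.19 to 1.40 for miR-155-5p and -1.73 to -1.53 for miR-223-3p. The smallest p of 4 against 5 libraries is again 0.00794. With such coarse steps of p, the loss does not show that any 1 library mattered. Between 6 weeks and 1 week the ratio of miR-155-5p to miR-142a-3p differed by -1.29, with 2 of 5 libraries below all at 1 week (exact permutation p = 0.0635, adjusted p = 0.159). The ratio of miR-150-5p to miR-142a-3p differed by 1.48 between 6 weeks and 1 week (exact permutation, adjusted p = 0.172), and by 2.13 without mouse 27 (adjusted p = 0.0265).

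The balance of the miR-142a arms varied with age without passing the test. As a percentage of the 3p arm (geometric mean of 5 mice), the 5p arm was 61.2% in the youngest mice and 49.97% at 6 weeks. It was then 61.2%, 80.2% and 70.0% at the 3 older ages, in order. Between 14 months and 6 weeks the log2 difference was 0.49, with 4 of 5 libraries above all at 6 weeks (exact permutation p = 0.0159, adjusted p = 0.0529). The 12-month libraries, from -0.52 to -0.13, lay above the 6-week libraries, from -1.39 to -0.72, a step that was not tested.

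**Figure D3:**
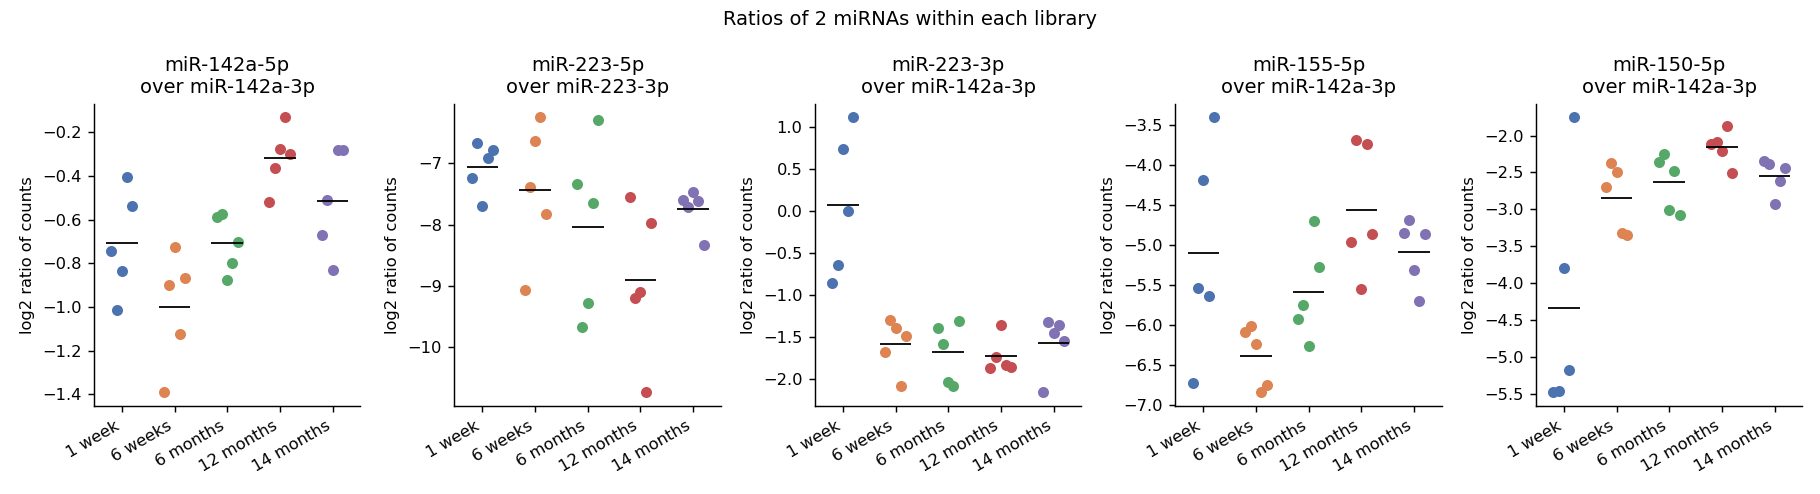
Log2 ratio of the counts of 2 miRNAs within each library (y axis, pseudocount 0.5, each panel with its own range) at the 5 ages (x axis), with 1 point per mouse and the mean of 5 as the line. The ratio of miR-223-3p to miR-142a-3p is highest at 1 week and level after it, and that of miR-155-5p to miR-142a-3p is lowest at 6 weeks.

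The make-up of the leukocyte miRNA counts is given as a description. At 1 week miR-223-3p made up 38.1% of the counts of the 6, miR-142a-3p 36.0%, miR-142a-5p 21.9%, miR-150-5p 2.43% and miR-155-5p 1.19%. At 6 weeks the same shares were 16.8%, 50.2%, 25.2%, 7.14% and 0.587%. At 14 months they were 15.2%, 44.5%, 31.2%, 7.68% and 1.34%. The 1-week mice were not alike: miR-223-3p was 49.7% and 50.7% of the 6 in mice 4 and 27, and 25.3% and 29.3% in mice 1 and 3. From 6 weeks on miR-142a-3p was the largest part in each of the 20 libraries.

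**Figure D4:**
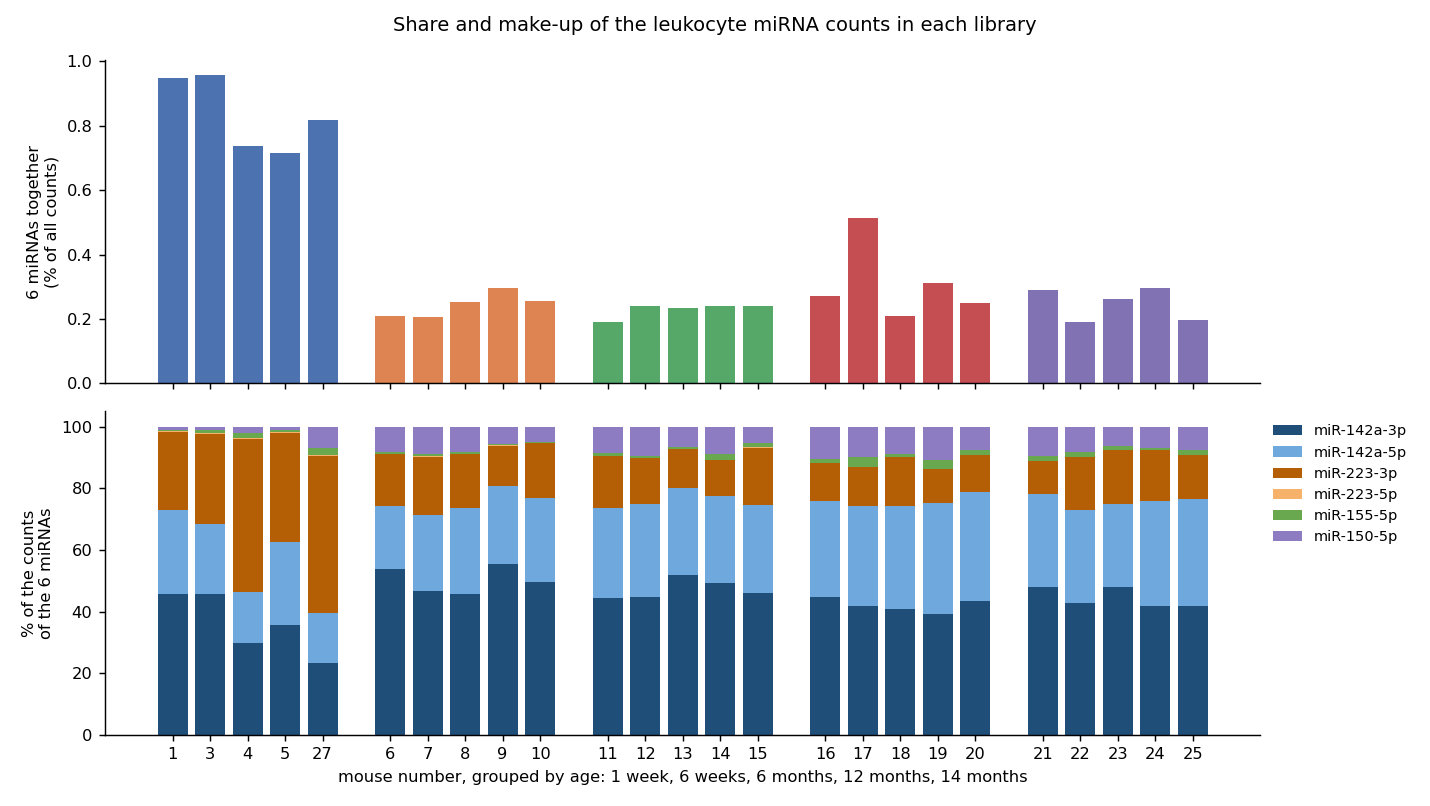
Upper panel: the 6 leukocyte miRNAs together as a percentage of all raw counts in each library (y axis from 0). Lower panel: the percentage of each miRNA among the counts of the 6, stacked to 100, for the 25 mice in order of age (x axis, mouse numbers), in which the miR-223-3p part averages 38.1% at 1 week and 12.8% to 16.8% later.

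Other miRNAs linked to leukocytes, from a list of 17 of which 16 were in the table and 9 tested, moved in both directions. Between 1 week and 6 weeks 2 of the 9 fell, 1 rose and 6 did not pass, with a median log2 fold change of -0.54. Of all entries 36.8% fell and 35.0% rose. miR-146b-5p, which like miR-146a damps Toll-like receptor signalling, fell from 456 to 101 CPM (log2 fold change -2.17 ± 0.30, edgeR adjusted p = 5.64e-07). miR-181b-5p fell from 9.27 to 5.08 CPM (-0.85 ± 0.38, edgeR adjusted p = 0.0491). miR-139-5p rose from 41.0 to 126 CPM (1.62 ± 0.16, edgeR adjusted p = 2.41e-09). The abundant miR-146a-5p stood at 4336 and 2983 CPM and did not pass (edgeR adjusted p = 0.149). Between 6 weeks and 14 months 0 of the 9 were called by edgeR, beside 3.84% of all entries, and the median was -0.15.

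Marker miRNAs of other cells changed in the same comparison of 6 weeks with 1 week, in which 36.8% of all entries fell and 35.0% rose. Of the erythroid miRNAs 4 of 5 fell and miR-451a did not pass (log2 fold change -0.26 ± 0.35, edgeR adjusted p = 0.509). Their summed level ranged from 416 to 921 CPM at 1 week and 180 to 514 CPM at 6 weeks. The entries miR-486a-5p and miR-486b-5p had equal mean levels and the same log2 fold change (-2.28 ± 0.31). They do not count as separate falls, and the sums hold both. Of the biliary miRNAs 5 of 5 fell (846 to 1368 CPM against 355 to 463 CPM), and the muscle miRNAs summed to 58.0 to 1122 CPM at 1 week and 1.63 to 7.14 CPM at 6 weeks. The hepatocyte miRNAs, led by miR-122-5p, rose in 6 of 6 (400184 to 572471 against 668942 to 756869 CPM). Of the endothelial miRNAs 1 of 2 rose and 0 fell, and of the stellate and smooth muscle miRNAs 3 of 6 rose and 0 fell. The 6 leukocyte miRNAs summed to 4978 to 5601 CPM and 2165 to 2843 CPM. None of the miRNAs of these other kinds of cell that were in the table was without a count at either age, and their part in the leukocyte values was not tested. At 12 months the stellate and smooth muscle miRNAs of mice 17 and 19 summed to 9184 and 9806 CPM, the highest of that age (6856 to 9806 CPM). Of these miRNAs 2 of 6 were called higher at 12 months than at 6 weeks, beside 3.84% of all entries. The summed muscle miRNAs of the same mice, 10.3 and 11.1 CPM, were also the highest of that age (8.01 to 11.1 CPM). Their erythroid sums were 269.8 and 232 CPM, the latter the lowest of that age (232 to 452 CPM). Mouse 17 had the highest biliary sum of that age (611 CPM) and mouse 19 the lowest (362 CPM). The part of these differences in the 12-month values was not tested. The leukocyte sums of mice 17 and 19, 5101 and 4057 CPM, were the highest and the third highest of the 20 older libraries.

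The entries whose pattern over the 25 libraries was most like each of the 4 main members were named by the mean absolute difference of centred log2 CPM, among 333 entries. For miR-223-3p these were miR-335-5p (0.35), miR-18a-5p (0.35) and miR-322-5p (0.36), against a median of 1.03 over all entries. miR-335-5p averaged 2021 CPM at 1 week and 495 CPM at 6 weeks. For miR-142a-3p they were let-7j (0.27), let-7i-5p (0.27) and miR-199a-3p (0.28), against a median of 0.78, and the first pair has almost equal values. For miR-150-5p they were miR-10b-5p (0.37), miR-10a-5p (0.37) and let-7b-5p (0.40), against 0.82, and here too the first pair has almost equal mean levels. miR-155-5p had no entry as close: miR-107-3p and miR-103-3p, near-equal in value, stood at 0.63 and miR-152-3p at 0.67, against a median of 1.09. All 25 libraries share the age groups and depths described above, so these distances describe likeness of level by age and nothing more.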

How the data were processed

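Small-RNA libraries of liver vesicles (QIAseq kit, per the labels' protocols) from 25 mice were analysed. The deposited table holds raw counts made by the authors, per entry and library, and the submitters' processing notes name Bowtie, edgeR and mm10. Their versions, the use of molecular identifiers and strand, and the miRNA annotation are not given in the sources used here. The table's gene lengths, another deposited column of the authors, were not used.

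Entries were filtered with filterByExpr by age (391 of 1493 kept), scaled by TMM and fitted in 1 model of 25 libraries with edgeR 4.0.16 (R 4.3.3, robust quasi-likelihood, Benjamini-Hochberg, threshold 0.05), with a biological coefficient of variation of 37.6%. The standard error is the log2 fold change divided by the root of F. DESeq2 1.42.0 served as an alternative, and ratios used a pseudocount of 0.5 and exact permutation in scipy 1.17.1. The fit was tested on simulated counts. The members and lists were chosen with earlier results of these data known. The named miRNAs are the members, the list members that passed the test, and for likeness the 3 closest entries. Each of the 50 pairs of same-age libraries differed beyond counting noise (chi-squared divided by its degrees of freedom at least 16.3). Nothing states how the 5 libraries of an age were handled beyond the mouse each came from, so p-values measure the spread between these samples. Counting errors only are covered by the floor of 3 counts. Depth was 641579 to 6888928 counts.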

Additional observations from a re-analysis of the deposited data

Results flagged for a closer look

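In groups of 5 libraries, 65 sets of values (levels, ratios, shares and library totals) were searched for a library far from the rest by Dixon's criterion. Chance flags about 1 in 20 sets, and 8 of the 65 were found. miR-150-5p of the 1-week mouse 27 stood at 369 CPM, with the next at 106 CPM. miR-155-5p of the 14-month mouse 21 stood at 55.3 CPM, with the next at 38.2 CPM. The log2 ratio of miR-223-3p to miR-142a-3p was lowest at -2.15 in the same mouse 21, against -1.55 in the nearest library, and highest at -1.35 in the 12-month mouse 18, against -1.74. The log2 ratio of miR-223-5p to miR-223-3p was -8.34 in the 14-month mouse 25, against -7.71, on 3 counts of the 5p arm. The 6 miRNAs together were 0.190% of counts in the 6-month mouse 11, against 0.233% in the next. The library total was 6888928 in the 1-week mouse 27, against 2621883, and 2485335 in the 6-month mouse 14, against 1258885.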

How the results depend on the processing

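No paired analysis was possible because no number is shared by mice of different ages. Counts of the 6 members called that moved by 1.5 times or more were as follows, and the cause was not tested. For 14 months against 1 week, 3 became 5 with library totals, DESeq2 size factors or the DESeq2 test. All entries called were 285 of 391 in the main fit and 287, 276 and 284 of 391 in these settings, in order. The members called ranged from 2 to 4 when 1 library was left out, and all entries called from 273 of 391 to 301 of 427. For 14 months against 6 weeks, 0 became 1 (miR-155-5p) without the filter and in a fit of those ages alone, where 5 members were tested. All entries called were 15 of 391 in the main fit, 24 of 1493 without the filter and 28 of 246 with those ages alone. For 12 months against 6 months, 0 became 1 without the filter, where 3 of 1493 entries were called, against 0 of 391 with it. Over the 4 older ages, 1 became 2 with the DESeq2 test, 3 without the filter and 3 in a fit of those ages alone. It became 0 with the log2 library total as a covariate or with mice 17 and 19 left out together. All entries called were 10 of 391 in the main fit. In these settings they were 25 of 391, 25 of 1493, 31 of 281, 5 of 391 and 6 of 432, in order. The members called ranged from 0 to 2 when 1 library was left out, with 0 without mouse 17. All entries called then ranged from 9 of 408 to 22 of 427. For 12 months against 6 weeks, 2 became 3 without the filter and in a fit of those ages alone. It became 1 with library totals or the covariate, and 0 without mice 17 and 19. All entries called were 22 of 391 in the main fit. In these settings they were 26 of 1493, 36 of 230, 20 of 391, 8 of 391 and 7 of 432, in order. The members called ranged from 1 to 2 when 1 library was left out, and all entries called from 15 of 408 to 31 of 421. The pair of mice was chosen because they were highest, so that fit was added after seeing the data, as was this comparison.

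Leaving out 1 library gave 5 to 6 calls of members for 6 weeks against 1 week and 4 to 6 over the 5 ages. All entries called ranged from 273 of 391 to 296 of 422 and from 286 of 391 to 318 of 428. The ratio of miR-223-3p to miR-142a-3p at 6 weeks against 1 week ranged from -1.89 to -1.40, and that of miR-155-5p to miR-142a-3p from -1.70 to -0.87 around its value of -1.29, which did not pass (exact permutation, adjusted p = 0.159) except without mouse 1 (0.0265). The latter ratio at 14 months against 6 weeks ranged from 1.19 to 1.46, and miR-150-5p to miR-142a-3p at 6 weeks against 1 week from 1.20 to 2.13. Among all entries, calls over the 4 older ages were 10 of 391, but 25 of 391 with DESeq2. At 14 months against 6 weeks they were 15 of 391, but 28 of 246 in a fit of those ages alone. No called value reversed its direction. Shallow 6-week libraries limit miR-223-5p and miR-155-5p, the latter resting on 9 to 20 counts there.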
